A study of Mus musculus with 4 samples.

Results

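The genes described here encode the factors that start and extend protein synthesis on cytosolic ribosomes. They were taken by name from the authors' expression table: names starting with Eif1 to Eif6, and names starting with Eef1 or Eef2, without the eIF2 kinases (Eif2ak), the eIF4E-binding proteins (Eif4ebp) and loci marked as pseudogenes. The rule gave 58 genes of the 14683 named in that table, 46 with initiation names and 12 with elongation names. They were measured by mRNA sequencing in MLE-12 cells, a mouse lung epithelial line transformed by SV40 large T antigen, which its mouse of origin carried under the SFTPC promoter. The libraries were Lingo1 KO unscratched, Lingo1 KO 24 hours after a scratch wound, WT unscratched and WT 24 hours after a scratch wound, with 1 library in each of the 4 conditions. Lingo1 encodes a membrane protein best known in the nervous system, and the study asked about its part in epithelial wound repair. How the knockout was made, and whether it was 1 clone, is not given in the sources used here. With 1 library per condition, genotype cannot be told apart from any other difference between these cultures.

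The total count lay between 26903429 and 48333801 reads per library, highest in the scratched KO library. Lingo1 mRNA was at 41.2 and 41.4 CPM (counts scaled to library size) in the KO unscratched and scratched libraries, against 46.4 and 42.9 CPM in the WT ones. Its mRNA level thus does not mark the libraries labelled KO, and the genotypes are given as labelled. For Lingo1, KO over WT was 0.889 in the unscratched pair (95% interval 0.821 to 0.963) and 0.966 in the scratched pair (0.899 to 1.04). Of 6 lung epithelial markers, 4 reached 1 CPM, with summed levels of 1184 and 1243 CPM in KO and 1203 and 1251 CPM in WT. Of 8 alveolar type 2 markers, 4 reached 1 CPM and Sftpa1 and Sftpd had no reads. Their sum was 314 and 291 CPM in KO and 208 and 197 CPM in WT, and the part of this difference in the results was not tested. In such bulk samples, more cells of a type and more RNA per cell cannot be told apart. Fibroblast markers summed to 2910 and 2660 CPM in KO and 2868 and 2837 CPM in WT, with 3 of 6 at 1 CPM or more.

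Initiation begins when eIF2, bound to GTP and the initiator tRNA, joins the small ribosomal subunit together with eIF1, eIF1A, eIF3 and eIF5. The eIF4F complex, made of the cap-binding protein eIF4E, the scaffold eIF4G and the helicase eIF4A, brings in the mRNA, and eIF5B then joins the large subunit. During elongation, eEF1A delivers each aminoacyl-tRNA, the eEF1B complex recharges eEF1A with GTP, and eEF2 moves the ribosome along by a codon. Many mRNAs of the translation machinery, among them those of ribosomal proteins, Eef1a1 and Eef2, start with a run of pyrimidines (the 5' TOP motif) and are translated under the control of mTOR and LARP1.

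Elongation factors stood at both ends of the range of levels. Eef1a1, which encodes the tRNA-delivering eEF1A, was at 2395 and 2310 RPKM (the authors' deposited unit, scaled to library size and per gene length) in the KO unscratched and scratched libraries and at 1628 and 1912 RPKM in the WT ones. It ranked 2, 2, 4 and 2 among the 14683 named genes in these libraries, in the same order. Eef2, for the translocase, followed at 1154 and 1147 RPKM in KO and 1006 and 973 RPKM in WT. Of the eEF1B subunits, Eef1b2 and Eef1g had mean levels over the 4 libraries of 163 and 138 RPKM, and Eef1d 53.6 RPKM. The genes for enzymes that modify elongation factors and the other Eef1 and Eef2 names were far lower, with means from 0.0599 RPKM for Eef1akmt3 to 24.2 RPKM for Eef1akmt1. The neuron and muscle form Eef1a2 was not among the 58, and its counts were 0 in all 4 libraries. The 5 core elongation genes together made up 1.17% and 1.10% of the RPKM summed over all named genes in the KO unscratched and scratched libraries, against 0.859% and 0.947% in the WT ones. The 46 initiation genes made up 0.983% and 0.977% in KO, against 0.891% and 0.955% in WT.

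Among the initiation names, Eif1, the factor that guards start codon choice, had the highest mean, 383 RPKM. Next came Eif4h (193 RPKM), Eif4g1 (179 RPKM), Eif4b (179 RPKM) and Eif5a (176 RPKM). The median of the 46 initiation means was 36.9 RPKM and that of all named genes 7.17 RPKM. The 14 eIF3 names ran from 1.14 RPKM for Eif3j1 to 175 RPKM for Eif3h. The 3 eIF2 subunits lay lower, between 13.0 RPKM for Eif2s3x and 25.8 RPKM for Eif2s1. Close relatives differed in level: Eif5a made up 96.4% and 96.8% of the summed RPKM of Eif5a and Eif5a2 in KO, against 95.02% and 96.0% in WT. The noncanonical cap-binding gene Eif4e2 had 66.3% and 65.3% of the summed RPKM of Eif4e, Eif4e2 and Eif4e3 in KO, against 69.4% and 67.5% in WT. Levels of genes with near-identical copies are uncertain, because it is not stated how reads matching several places were counted.

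**Figure D1:**
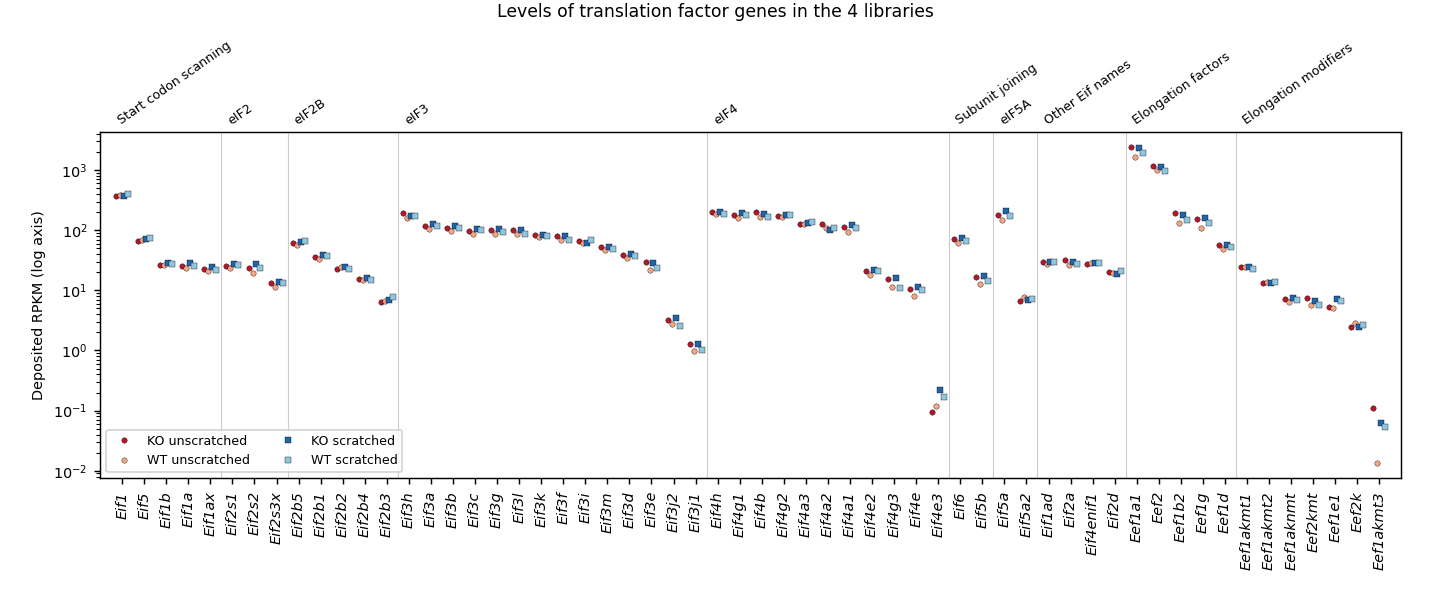
Deposited RPKM of the 58 translation factor genes (log axis), grouped by role and ordered by mean level within each role, with 1 point per library. Eef1a1 and Eef2 sit at the top, at 973 RPKM or more, and Eif4e3 and Eef1akmt3 below 1 RPKM in each library.

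Of the 58 genes, 56 reached 1 CPM in at least 1 library and were tested. The other two were Eif4e3, with 7 and 27 reads in KO and 8 and 12 reads in WT, and Eef1akmt3, with 9 and 8 reads in KO and 1 and 4 reads in WT, each given unscratched and then scratched. Differences were tested with edgeR's quasi-likelihood test in an additive model of genotype and scratch, fitted to 12348 genes with Benjamini-Hochberg adjustment at 0.05. "Rose" and "fell" refer to this test. The 4 libraries leave this model 1 residual degree of freedom, so the p-values speak of these libraries and of no repeat cultures. Folds between single libraries are ratios of CPM with an exact 95% Clopper-Pearson interval, which covers counting error only.

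The genes of all 5 core elongation factors rose in the KO libraries, as did 6 of all 11 tested elongation names and 16 of 45 tested initiation genes. In total 22 of the 56 tested genes rose and 0 fell, where 26.0% of all genes tested passed in either direction. At an unadjusted p under 0.05, edgeR, DESeq2 and limma each had 0 lower members. The share of all genes at that level was not counted, so this has no background to be read against. Of all genes tested, 13.8% rose and 12.2% fell. The changes were small, with fitted log2 differences from 0.15 for Eif3b to 0.48 for Eif4g3 among the 22. The median log2 difference (KO minus WT) was 0.17 over the 11 tested elongation names, 0.12 over the initiation genes and 0.00 over all 12348 genes. Over the 5 core elongation genes alone it was 0.39. Of the 56, 42 were above WT in both the unscratched and the scratched pair, which share no library, against 4619 of the 12348 genes. In CPM, both KO libraries lay above both WT libraries for 31 of the 56 genes and below both for 4 (Eef1akmt2, Eef2k, Eif1 and Eif5a2), against 28.6% and 27.6% of all genes tested. Libraries that do not overlap are therefore common in these data. In the same fit, 72 of 84 tested ribosomal protein genes rose and 0 fell, with a median of 0.28.

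Eef1a1 was at 2395 RPKM in KO and 1628 RPKM in WT without a scratch, and at 2310 RPKM in KO and 1912 RPKM in WT after it. Both KO libraries lay above both WT libraries. The fold in CPM was 1.48 (1.46 to 1.49) without and 1.21 (1.2 to 1.22) after a scratch, and the fitted log2 difference was 0.42 ± 0.07 (SE, edgeR adjusted p = 3.92e-05). With limma on the RPKM values Eef1a1 did not pass (adjusted p = 0.17), and neither did Eef2 (0.282). Of the 50-base stretches of the longest Eef1a1 coding transcript, 59.2% also occur in annotated transcripts of 20 other genes, so its level is uncertain.

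The eEF1B genes encode the exchange factor that returns eEF1A to its GTP form. Eef1b2, the catalytic beta subunit, was at 191 RPKM in KO and 133 RPKM in WT without a scratch, and at 183 RPKM in KO and 146 RPKM in WT after it. Its folds were 1.44 (1.40 to 1.49) and 1.25 (1.22 to 1.29), and the log2 difference was 0.43 ± 0.06 (edgeR adjusted p = 4.96e-06). Eef1g, the structural gamma subunit, was at 155 RPKM in KO and 110 RPKM in WT without a scratch, and at 159 RPKM in KO and 130 RPKM in WT after it. For both genes the KO and WT libraries did not overlap. The Eef1g folds were 1.41 (1.36 to 1.46) and 1.23 (1.19 to 1.26), with a log2 difference of 0.39 ± 0.06 (edgeR adjusted p = 1.71e-05). Eef1g shares 64.3% of its 50-base stretches with 5 other genes, whereas Eef1b2 shares 5.98% with 3 others.

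Eef1d and Eef2 differed less. Eef1d, a second exchange subunit, was at 56.7 RPKM in KO and 49.0 RPKM in WT without a scratch, and at 56.6 RPKM in KO and 52.0 RPKM in WT after it. Its log2 difference of 0.17 ± 0.06 passed with edgeR (adjusted p = 0.0318), but not with library totals in place of TMM factors (0.0501), DESeq2 (0.224) or limma (0.0557). Eef2 had folds of 1.15 (1.14 to 1.16) without and 1.18 (1.17 to 1.19) after a scratch, and its log2 difference was 0.22 ± 0.06 (edgeR adjusted p = 0.00924). Thus Eef2 differed by nearly the same fold in both pairs, while Eef1a1, Eef1b2 and Eef1g had larger folds in the unscratched pair. Relative to Eef1a1, the Eef2 level was 48.2% in KO and 61.8% in WT without a scratch, and 49.6% in KO and 50.9% in WT after it. The unscratched WT library stands apart in that ratio.

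**Figure D2:**
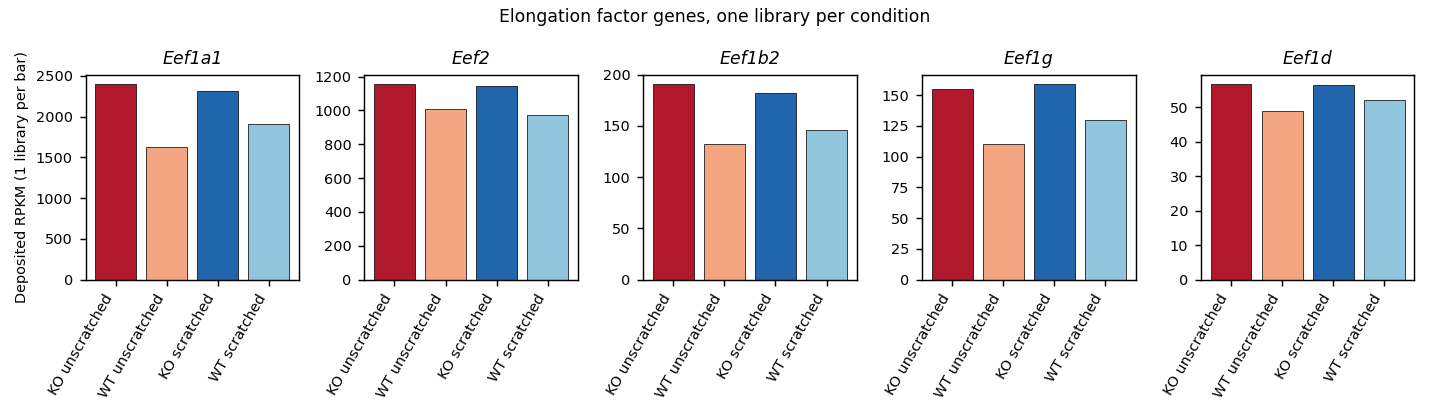
Deposited RPKM of the 5 core elongation factor genes, 1 bar per library, with the axes starting at 0. In each panel both KO bars are taller than both WT bars, and the unscratched WT bar is the lowest for Eef1a1, Eef1b2, Eef1g and Eef1d.

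The 5 genes lie on 5 different chromosomes (build mm10, GENCODE M21). Eef1a1 spans chromosome 9, 78478449 to 78489151, on the minus strand, Eef2 chromosome 10, 81176631 to 81182498, on the plus strand, and Eef1b2 chromosome 1, 63176825 to 63180486, on the plus strand. Eef1g spans chromosome 19, 8967041 to 8978479, on the plus strand and Eef1d chromosome 15, 75894205 to 75909556, on the minus strand. Exons of Eef1b2 overlap those of Ndufs1 on the other strand, and exons of Eef1d those of Naprt on its own strand. Over the 58 genes, 12 had such an overlap on their own strand and 15 on the other, and they lay on 18 chromosomes.

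The other elongation names mostly did not pass. Eef2kmt, a lysine methyltransferase of eEF2, rose by a log2 difference of 0.30 ± 0.09 (edgeR adjusted p = 0.0212; 0.449 with DESeq2) and was at 7.39 and 6.76 RPKM in KO and 5.74 and 5.79 RPKM in WT. Eef2k, the kinase that inhibits eEF2, was at 2.45 and 2.47 RPKM in KO and 2.82 and 2.62 RPKM in WT. Its log2 difference was -0.14 ± 0.09 (edgeR adjusted p = 0.276). The methyltransferase genes Eef1akmt1, Eef1akmt2 and Eef1aknmt had log2 differences of 0.08, -0.06 and 0.14, none past the test.

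The largest difference among the initiation genes was that of Eif4g3, which encodes eIF4GII, the less abundant relative of the scaffold eIF4GI. Eif4g3 was at 15.5 RPKM in KO and 11.6 RPKM in WT without a scratch, and at 16.1 RPKM in KO and 11.1 RPKM in WT after it. The 2 KO libraries lay above both WT libraries. The folds were 1.34 (1.28 to 1.41) and 1.45 (1.39 to 1.52), with a log2 difference of 0.48 ± 0.06 (edgeR adjusted p = 4.31e-07). No 50-base stretch of its longest coding transcript occurs in another annotated gene. The main scaffold gene Eif4g1 was at 179 and 195 RPKM in KO and 163 and 178 RPKM in WT, and its log2 difference of 0.14 ± 0.06 did not pass (edgeR adjusted p = 0.105). Eif4g3 therefore made up 4.24% and 4.08% of the summed RPKM of Eif4g1, Eif4g2 and Eif4g3 in KO, against 3.39% and 3.03% in WT.

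Eif4e, Eif4b and Eif4a1 also rose. Eif4e, for the cap-binding protein, was at 10.5 RPKM in KO and 7.97 RPKM in WT without a scratch, and at 11.5 RPKM in KO and 10.1 RPKM in WT after it (log2 0.29 ± 0.06, edgeR adjusted p = 0.000593). The Eif4e difference did not pass with DESeq2 (adjusted p = 0.0926). Its libraries ran in the order WT unscratched, WT scratched, KO unscratched, KO scratched, so the genotypes did not overlap. Eif4b, which stimulates the helicase, was at 198 and 188 RPKM in KO and 164 and 165 RPKM in WT (log2 0.23 ± 0.06, edgeR adjusted p = 0.00565). Eif4a1, an eIF4A helicase gene, was at 112 and 121 RPKM in KO and 93.0 and 109 RPKM in WT (log2 0.22 ± 0.06, edgeR adjusted p = 0.0059). Eif4a2, a relative at a similar level, was at 125 and 102 RPKM in KO and 111 and 111 RPKM in WT. It did not pass (log2 0.03 ± 0.06, edgeR adjusted p = 0.738). Eif4a1 shares 65.3% of its 50-base stretches with 8 other genes. Eif4h, a second helicase cofactor, was at 199 and 200 RPKM in KO and 184 and 188 RPKM in WT and did not pass (log2 0.10 ± 0.06, edgeR adjusted p = 0.207).

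Of the 14 eIF3 genes, 7 rose: Eif3b, Eif3e, Eif3f, Eif3g, Eif3j1, Eif3j2 and Eif3l. Of these, Eif3e and Eif3f also passed with DESeq2, while the adjusted p there was 0.192 for Eif3b, 0.342 for Eif3g, 0.575 for Eif3j1, 0.521 for Eif3j2 and 0.0624 for Eif3l. eIF3 is the large scaffold that holds the small subunit and its factors together. Eif3e had the lowest edgeR adjusted p of the 7 (log2 0.36 ± 0.06, adjusted p = 5e-05), but its mean of 25.6 RPKM lay below the eIF3 median of 77.9 RPKM. It was at 29.5 RPKM in KO and 21.6 RPKM in WT without a scratch, and at 28.0 RPKM in KO and 23.4 RPKM in WT after it. Of the 50-base stretches of Eif3e, 22.0% occur in 4 other genes. Eif3f was at 81.4 and 79.9 RPKM in KO and 68.6 and 68.2 RPKM in WT (log2 0.24 ± 0.06, edgeR adjusted p = 0.00248). Eif3l was at 99.5 and 100.1 RPKM in KO and 85.8 and 87.9 RPKM in WT (log2 0.21 ± 0.06, edgeR adjusted p = 0.00886). For Eif3e, Eif3f and Eif3l the genotypes did not overlap. Eif3b was at 107 and 119 RPKM in KO and 96.2 and 108 RPKM in WT, which overlap, and Eif3g was at 99.3 and 105 RPKM in KO and 88.1 and 95.2 RPKM in WT. Their log2 differences were 0.15 and 0.16, with adjusted p-values of 0.044 and 0.0385 in edgeR's test. With library totals (0.0685 and 0.0587) and with limma (0.0899 and 0.0781) neither passed, and Eif3b did not pass with DESeq2 size factors either (0.0551). Eif3j1 was at 1.28 RPKM in both KO libraries and at 0.979 and 1.02 RPKM in WT (log2 0.36 ± 0.12, edgeR adjusted p = 0.0314; 0.109 with limma). Eif3j2 was at 3.23 and 3.53 RPKM in KO and 2.71 and 2.54 RPKM in WT (log2 0.37 ± 0.12, edgeR adjusted p = 0.0198). They are near-identical copies: 91.9% of the 50-base stretches of Eif3j2 occur in 2 other genes, so the reads of the pair cannot be assigned with confidence.

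Among the genes of eIF2 and its exchange factor eIF2B, 1 of 8 passed. Of the 3 eIF2 subunit genes, Eif2s2, the beta subunit, rose (log2 0.28 ± 0.06, edgeR adjusted p = 0.00036). It was at 23.9 RPKM in KO and 19.1 RPKM in WT without a scratch, and at 27.7 RPKM in KO and 23.5 RPKM in WT after it. Of the 50-base stretches of Eif2s2, 27.8% occur in 1 other gene, so its level is less certain. Eif2s1 and Eif2s3x, the alpha and gamma subunits, had log2 differences of 0.10 and 0.12 and did not pass. The Y-linked copy Eif2s3y had counts of 0 in all 4 libraries. None of the 5 eIF2B subunit genes passed in edgeR's test, and their log2 differences lay between -0.11 for Eif2b3 and 0.08 for Eif2b1.

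Eif5b and Eif6, grouped here as factors that join the ribosomal subunits or keep them apart, both rose. Eif5b, the GTPase that joins the subunits, was at 16.5 RPKM in KO and 13.0 RPKM in WT without a scratch, and at 17.2 RPKM in KO and 14.6 RPKM in WT after it (log2 0.30 ± 0.06, edgeR adjusted p = 0.000389). Eif6, which keeps free large subunits apart from small ones, was at 72.3 and 74.4 RPKM in KO and 61.4 and 66.8 RPKM in WT (log2 0.20 ± 0.06, edgeR adjusted p = 0.00975; 0.172 with DESeq2). Eif5a carries an initiation name, but its hypusine-bearing product is known to help elongation and termination. It was at 181 RPKM in KO and 145 RPKM in WT without a scratch, and at 206 RPKM in KO and 171 RPKM in WT after it (log2 0.30 ± 0.06, edgeR adjusted p = 0.000329). Its relative Eif5a2 had a log2 difference of -0.11 ± 0.07 and did not pass. Eif2a, a factor of noncanonical initiation, was at 31.6 and 30.0 RPKM in KO and 26.4 and 27.3 RPKM in WT (log2 0.20 ± 0.06, edgeR adjusted p = 0.00983; 0.191 with DESeq2).

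None of the 5 genes of start codon scanning passed in the KO comparison. Eif1 was at 373 and 375 RPKM in KO and 389 and 396 RPKM in WT, with folds of 0.962 (0.940 to 0.985) and 0.951 (0.931 to 0.971). Its 2 KO libraries lay below both WT libraries, but the log2 difference of -0.06 ± 0.06 did not pass (edgeR adjusted p = 0.456). Eif5, the GTPase-activating protein for eIF2, had a log2 difference of -0.03, Eif1b of 0.04, and Eif1a and Eif1ax of 0.13 each.

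**Figure D3:**
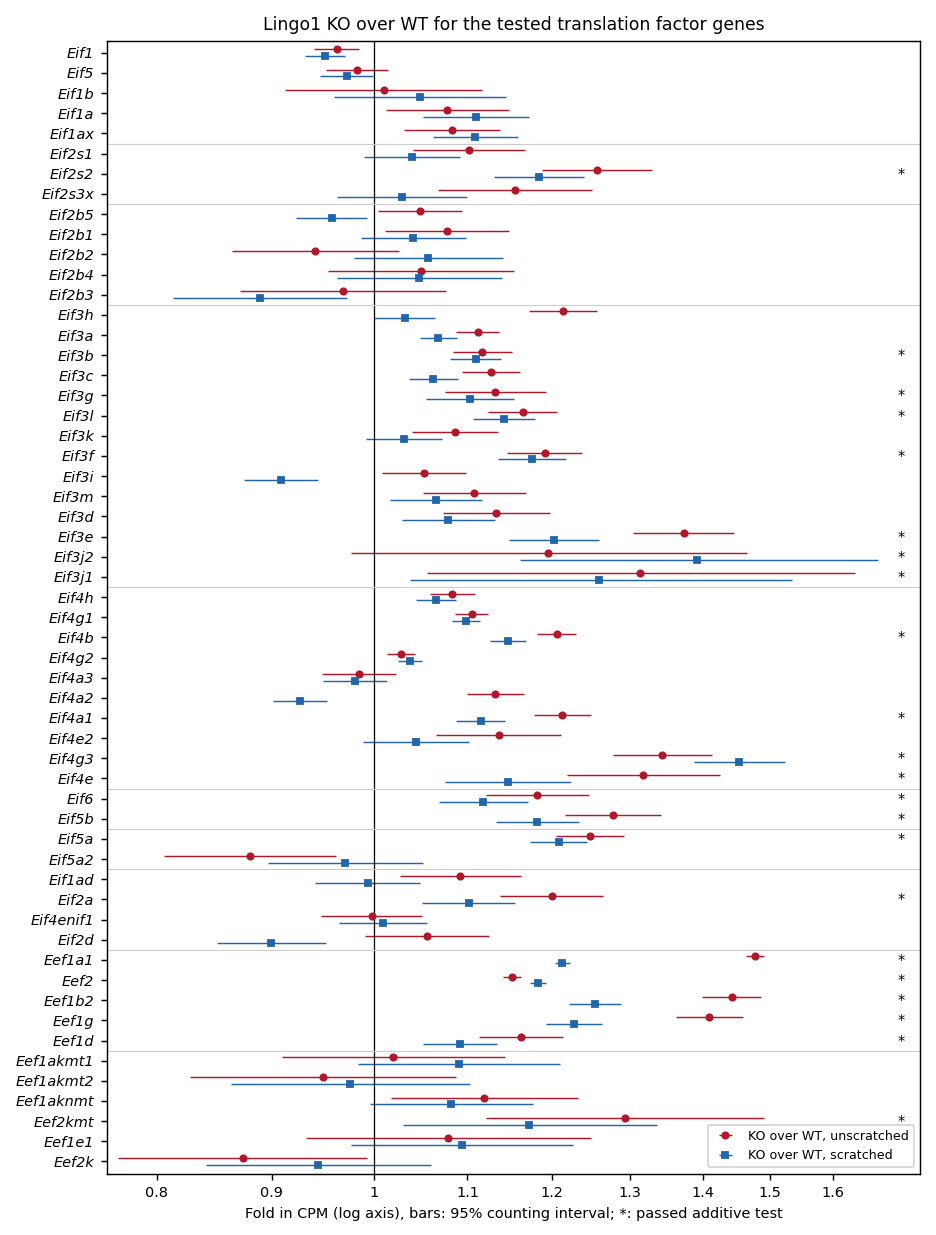
KO over WT fold in CPM (log axis) for the 56 tested genes, in the unscratched pair (circles) and the scratched pair (squares), with bars for the 95% counting interval. Genes are grouped by role as in the plot of levels, stars mark the 22 that passed the additive test, and the starred points lie to the right of 1.

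In the single pairs, 14 of the 56 genes were at least 1.2-fold higher in KO without a scratch with an interval past 1, and 8 were after it, while 0 were as much lower in either pair. Over all genes tested, 11.7% and 9.6% were that much higher and 10.3% and 7.52% that much lower. Of the 14 and 8, 3 each were core elongation genes, namely Eef1a1, Eef1b2 and Eef1g. No member reached 1.5-fold in either direction.

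The starts of some genes that rose in KO are shown, because 5' TOP mRNAs start with a run of pyrimidines. Except for Eef1b2, those shown hold a run of pyrimidines somewhere in the window, which most genes that rose did not. The windows span 25 bases on either side of the RefSeq start (build GRCm38.p6), with the first run of at least 7 C or T letters that begins with C on the gene's strand in capitals. A run counted anywhere in the window, before or after the start. In Eif3f the capitals lie wholly before the start, and a later run across the start is left in lower case.
Eef1a1 (chr9:78481700-78481749, minus strand): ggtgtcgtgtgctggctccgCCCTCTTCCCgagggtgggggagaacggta
Eef2 (chr10:81176606-81176655, plus strand): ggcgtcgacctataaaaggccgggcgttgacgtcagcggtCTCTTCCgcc
Eef1b2 (chr1:63176806-63176855, plus strand): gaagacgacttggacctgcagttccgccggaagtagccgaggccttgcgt
Eif3f (chr7:108934390-108934439, plus strand): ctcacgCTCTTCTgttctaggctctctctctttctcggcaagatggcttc
Eif3l (chr15:79075198-79075247, plus strand): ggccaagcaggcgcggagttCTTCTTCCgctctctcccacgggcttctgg
Eif4b (chr15:102073748-102073797, plus strand): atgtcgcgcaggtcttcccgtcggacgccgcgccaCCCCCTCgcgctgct
Of the 58 genes, 45 had such a window, and Eef1g and Eef1d did not. A gene with several RefSeq starts counted if any of them had a run, as Eif4e did through its second start. A run was present in 6 of 17 genes that rose in KO and in 10 of 28 tested genes that did not pass. Over all 27025 genes with a window, 25.6% held one. Among members the shares were 35.3% in those that rose and 35.7% in those that did not pass. The RefSeq start need not be the start used in these cells, so a marked run need not be a 5' TOP motif. For Eef1a1, on the minus strand, the GENCODE span reaches 78489151, which lies upstream of the window shown. Whether the run marked for Eef1a1 is transcribed was not tested.

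After the scratch, 4 of the 56 genes rose and 0 fell in the additive fit, where 2.91% of all genes tested passed, 1.47% higher and 1.44% lower. At an unadjusted p under 0.05, edgeR had 17 of the 56, 1 of them lower. The share of all genes at that level was not counted, so these 17 have no background to be read against. The 4 were Eef1e1, Eif2s2, Eif4e and Eif5a, of which the last 3 also rose in KO. None of the 4 passed with DESeq2 or with limma on RPKM values, and Eif4e and Eif5a also did not pass with library totals (adjusted p of 0.0504 and 0.0561 in edgeR).

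Eef1e1 had the largest scratch difference. Despite its name it encodes AIMP3, a scaffold of the aminoacyl-tRNA synthetase complex. It was at 7.14 RPKM in scratched and 5.37 RPKM in unscratched KO cells, and at 6.55 RPKM in scratched and 4.995 RPKM in unscratched WT cells. The fold was 1.34 (1.19 to 1.51) in KO and 1.32 (1.15 to 1.52) in WT, with a log2 difference of 0.41 ± 0.09 (edgeR adjusted p = 0.0112). The 2 scratched libraries lay above both unscratched ones, as in CPM for 16 of the 56 genes and 16.7% of all genes tested. The reverse held for 0 of the 56 and 11.9% of all. Eif2s2 had folds of 1.16 (1.11 to 1.22) in KO and 1.23 (1.17 to 1.31) in WT (log2 0.26 ± 0.06, edgeR adjusted p = 0.00859). Eif4e had folds of 1.10 in KO and 1.27 in WT (log2 0.24 ± 0.06, edgeR adjusted p = 0.0273), and Eif5a 1.15 in KO and 1.19 in WT (log2 0.22 ± 0.06, edgeR adjusted p = 0.0308).

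Small differences in the same direction were common. The median log2 difference after the scratch was 0.07 in KO and 0.12 in WT over the 45 initiation genes, and 0.01 in KO and 0.02 in WT over all genes tested. Over the 11 tested elongation names it was 0.0051 in KO and 0.096 in WT, and over the 5 core elongation genes -0.0019 in KO and 0.15 in WT. Of the 45 initiation genes, 30 were above the unscratched level in both genotypes, against 4246 of all 12348. The 5 scanning genes were higher in both genotypes, as were the 3 eIF2 genes, and 7 of 14 eIF3 genes were. At least 1.2-fold differences were few: 1 gene was higher and 1 lower in KO, and 3 were higher and 0 lower in WT, against 2.23%, 3.28%, 4.16% and 5.28% of all genes, in that order. The gene lower in KO was Eif4a2, an eIF4A helicase gene, at 102 RPKM in scratched and 125 RPKM in unscratched KO cells (fold 0.823, 0.802 to 0.845). In WT it was at 111 RPKM in both. The exons of Eif4a2 overlap 6 annotated genes on its own strand, among them Snora81 and Snord2, and exons of Rfc4 on the other strand, and the strand setting of the counting is not stated.

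After the scratch, Eef1a1 and Eef1b2 were lower in KO (0.970 and 0.963 of the unscratched level) and higher in WT (1.18 and 1.11). The KO response divided by the WT response was 0.821 for Eef1a1 (95% counting interval 0.811 to 0.830), 0.869 for Eef1b2 (0.835 to 0.905) and 0.870 for Eef1g (0.832 to 0.910). It was 1.03 for Eef2 (1.01 to 1.04). Among the 56 genes the interval lay below 1 for 20 and above 1 for 3, against 15.1% and 11.8% of all genes tested. This ratio has no replicate, and with 1 library per condition the difference of the responses could not be tested. The unscratched WT library enters both the unscratched KO comparison and the WT scratch response, and Eef1a1, Eef1b2, Eef1g and Eef1d were lowest in it. The scratched pair, which does not use that library, gave folds of 1.21, 1.25, 1.23, 1.09 and 1.18 for Eef1a1, Eef1b2, Eef1g, Eef1d and Eef2.

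**Figure D4:**
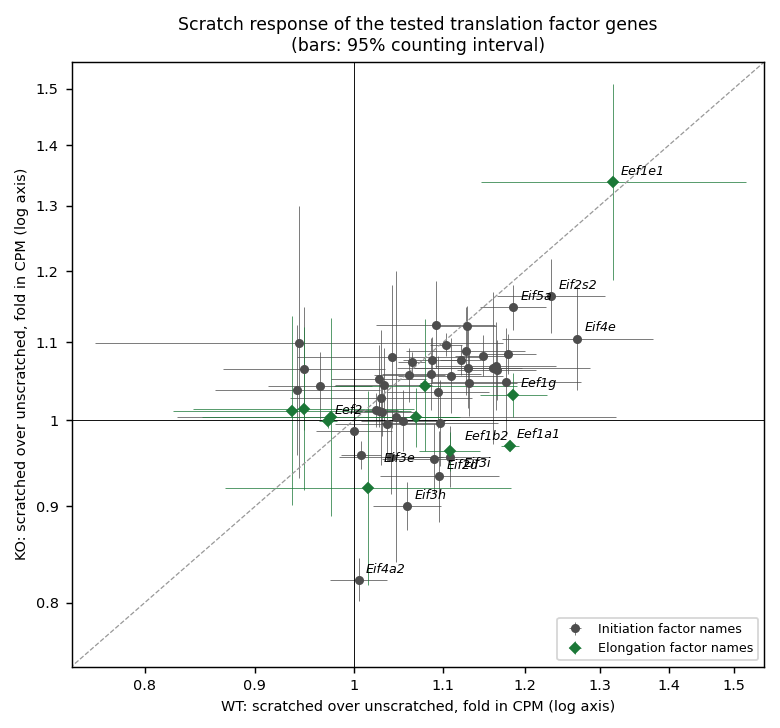
Fold in CPM after the scratch in KO (vertical) against that in WT (horizontal), both on log axes, for the 56 tested genes, with bars for the 95% counting interval and a dashed line of equal response. Eef1e1 is the highest point on both axes, Eif4a2 the lowest in KO, and Eef1a1 and Eef1b2 lie above 1 in WT and below 1 in KO.

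Of 56 listed genes that act with or on these factors, 54 were measured and tested. In KO, 13 rose and 4 fell by edgeR's test, where 26.0% of all genes tested passed, 13.8% higher and 12.2% lower. The largest rise was that of Pabpc1, the poly(A)-binding protein that contacts eIF4G, at 249 and 255 RPKM in KO and 180.4 and 179.7 RPKM in WT (log2 0.49 ± 0.06, adjusted p = 6.12e-07, edgeR). Its relative Pabpc4 rose by 0.27 ± 0.05. Eif4ebp1, the eIF4E-binding repressor, rose by 0.37 ± 0.07, and Larp1, which binds 5' TOP mRNAs, by 0.22 ± 0.06. Dhps, the enzyme that begins hypusine formation on eIF5A, rose by 0.31 ± 0.09, and Tpt1, a 5' TOP gene, by 0.22 ± 0.07. Etf1, the release factor, Gcn1, a partner of the eIF2 kinase GCN2, and Denr, a recycling factor, rose by 0.19, 0.18 and 0.18. Mknk2 and Mknk1, the kinases of eIF4E, fell by 0.28 ± 0.06 and 0.20 ± 0.06, and Atf4, translated when eIF2 is phosphorylated, fell by 0.22 ± 0.06. All these are log2 differences of KO minus WT that passed edgeR's test.

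After the scratch, 4 of these 54 genes rose and 1 fell, where 1.47% and 1.44% of all genes tested did. Eif4ebp1 was at 22.4 RPKM in scratched and 15.8 RPKM in unscratched KO cells, and at 17.2 RPKM in scratched and 12.5 RPKM in unscratched WT cells (log2 0.49 ± 0.07, edgeR adjusted p = 0.000173). The highest level was that of the scratched KO library and the lowest that of the unscratched WT library. Dph3, needed for the diphthamide residue of eEF2, rose by 0.27 ± 0.07, Abce1, the ribosome recycling ATPase, by 0.26 ± 0.06 and Atf4 by 0.25 ± 0.06. Gigyf1, a partner of the repressor eIF4E2, fell by 0.27 ± 0.06.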

How the data were processed

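Libraries were made with a stranded mRNA kit, per the labels. The authors deposited raw read counts for 46078 genes and RPKM values for 14683 named genes, both for the same 4 libraries. The submitters' processing notes name the build mm10 and the tools STAR 2.7.9a, Trimmomatic 0.39, edgeR 3.32.1 and HTSeq 0.11.3, without roles. Not given in the sources used here are the annotation, the strand setting of the counting and the treatment of reads with several matches. Columns were matched to samples by genotype and by the letter for scratch, and the other letter was read as unscratched. Results on the scratch depend on this reading.

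Folds and tests used the counts, scaled by TMM factors (edgeR 4.0.16, R 4.3.3), and levels are the deposited RPKM. Genes with at least 1 CPM in at least 1 library were tested in an additive edgeR quasi-likelihood fit. Its pooled coefficient of variation of 5.49% reflects how far scratch responses differ between genotypes, and does not measure variation between replicate cultures. DESeq2 1.42.0 and limma 3.58.1 (on log2(RPKM + 0.1)) were alternatives. Intervals and the floor of 3 counts, 0.0626 to 0.111 CPM, cover counting error only, since reads carry no molecular identifiers. Of the tests, the additive fit was run on counts simulated with a common spread for all genes, genotype changes and no scratch effect. That run checks the script only and does not stand in for replicate cultures. Shared 50-base stretches and overlaps came from GENCODE M21 on mm10, sense strand. Python 3.11.15, pandas 2.3.3, scipy 1.17.1 and matplotlib 3.10.9 were used.

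Members, lists and tests were chosen with earlier results of these data known. Values in all libraries were given for core elongation factors, for members that passed and for the 5 most abundant initiation factors, and up to 12 genes of the translation regulator list were named by size of change.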

Additional observations from a re-analysis of the deposited data

Results flagged for a closer look

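Several genes had scratch responses, or KO differences, of opposite sign with both counting intervals past 1. With 1 library per condition, none of these differences was tested between cultures. The ratio given is the KO scratch response over the WT scratch response.

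Eef1a1 stood at 0.970 of its unscratched level after the scratch in KO (0.963 to 0.976) and at 1.18 in WT (1.17 to 1.19), a ratio of 0.821. Eef1b2 had folds of 0.963 in KO and 1.11 in WT, a ratio of 0.869. Among initiation genes, the ratio was 0.875 for Eif3e (0.954 in KO and 1.09 in WT), 0.850 for Eif3h (0.901 in KO and 1.06 in WT) and 0.864 for Eif3i (0.957 in KO and 1.11 in WT). For Eif2d, a reinitiation factor, it was 0.852 (0.934 in KO and 1.10 in WT). The KO over WT fold was 0.927 after the scratch and 1.13 without it for Eif4a2, whose ratio of 0.819 was the lowest of the 56. For Eif3i these folds were 0.908 and 1.05, and for Eif2b5, the catalytic subunit of eIF2B, 0.957 and 1.05, a ratio of 0.913.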

How the results depend on the processing

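The KO count of 22 members was 19 to 23 with other library factors or filters and 16 with limma on RPKM, and 12 with DESeq2's Wald test. Of all genes, 26.0% passed as reported, 19.8% with limma and 7.84% with DESeq2. The share was 25.4% with DESeq2 size factors, 24.9% with library totals, 27.7% at a filter of 5 CPM and 14.3% without a filter. The scratch count of 4 was 2 with library totals, 0 with DESeq2 and 0 with limma on RPKM. Of all genes, 2.91% passed for the scratch as reported and 2.52% with library totals. With DESeq2 36 of 12348 genes passed, and with limma 46 of 12267. At an unadjusted p under 0.05 DESeq2 and limma gave 8 and 12 members for the scratch, a level at which the share of all genes was not counted. At folds of at least 1.5 or 2, 0 members were called in each of the 4 single pairs. Without the enzymes and Eef1e1, the elongation median changed to 0.50 in the unscratched and 0.28 in the scratched KO comparison, against 0.20 and 0.13 over all 11 tested elongation names.

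Signs turned for members near 0, each in a comparison in which it never passed. In KO against WT, Eif2b5 was at -0.0026 with DESeq2 size factors, -0.0089 with library totals, -0.0019 with DESeq2 and -0.0028 with limma, and Eif4enif1 at -0.0061 with library totals and -0.00099 with limma. For the scratch, Eif4g3 was at -0.00054, -0.0073, -0.0095 and -0.0035 in the same order. Eif2b2 was at -0.00296 with library totals, -0.0063 with DESeq2 and -0.00034 with limma, and Eif2d at -0.00094 and -0.00019 with the first and second of these. The cause was not tested. Leaving out a library leaves the additive fit no residual degree of freedom, so it was not run. No paired analysis was possible because each condition had 1 library and no replicate number.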

Other observations

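The 4 pseudogene loci with Eif or Eef names were left out by the rule and had few reads. Eif3s6-ps2, a copy of Eif3e, had 97 and 135 reads in the KO unscratched and scratched libraries, against 47 and 69 reads in the WT ones. Its log2 difference of 0.52 ± 0.21 (KO minus WT) did not pass edgeR's test (adjusted p = 0.0677), while Eif3e itself was at 0.36. Eif4a-ps4 had 61 and 97 reads in KO and 68 and 67 reads in WT, and its log2 difference of -0.26 ± 0.21 did not pass (edgeR adjusted p = 0.385), beside 0.22 for Eif4a1.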
